A study of Mus musculus with 14 samples.

Results

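The genes described here encode the machinery of oxidative phosphorylation. They were measured in sorted blood stem and progenitor cells of control mice and of mice bred to delete Dnmt1. Dnmt1 is the methyltransferase that restores CpG methylation after DNA replication. The genes were taken by name: gene symbols that begin with Nduf, Uqcr, Cox4, Cox5, Cox6, Cox7, Cox8 or Atp5, together with Sdha, Sdhb, Sdhc and Sdhd. The rule used no measured value to choose genes, although the members were chosen with earlier results of these data known. Where a gene had several probe sets the rule took the probe set with the highest mean signal. It found 84 genes among the 12393 genes with a single symbol, carried by 156 of 20380 probe sets. Of the 84 genes, 82 passed the filter on low signal, which 8608 genes passed in all.

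RNA was measured on 14 Affymetrix arrays. All mice were C57BL/6, 8 to 12 weeks old and homozygous for floxed Dnmt1. Every mouse, whatever its genotype, was given poly(I)poly(C) 7 times, on alternate days, at 25 ug/kg. Bone marrow was collected 4 days after the course ended. Knockout mice were Dnmt1fl/fl Mx-Cre+ and controls were Dnmt1fl/fl Mx-Cre-. Mx-Cre is a transgene that makes the Cre recombinase in interferon-responsive cells of many types, so the deletion is not limited to stem cells. Controls were injected too, so the response to poly(I)poly(C) is shared by both genotypes, while no control carried Cre. Lineage-positive cells were removed with magnetic beads, and 3 populations were sorted from the remainder. Cells with Kit and Sca-1 were split by CD34 into long-term hematopoietic stem cells (LT-HSCs, CD34-) and multipotent progenitors (MPPs, CD34+), while cells with Kit but no Sca-1 were taken as myeloid progenitors. Each genotype had 2 arrays of LT-HSCs, 2 of MPPs and 3 of myeloid progenitors. Each array held RNA of marrow pooled from 4 to 6 mice of 1 genotype, so errors and p-values describe pools and not single mice. Same-numbered control and knockout pools of a population came from littermates, which gives 7 pairs.

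Oxidative phosphorylation makes ATP in the inner mitochondrial membrane. Complexes I and II pass electrons to ubiquinone, complex III passes them to cytochrome c and complex IV to oxygen. Complexes I, III and IV pump protons, and complex V, the ATP synthase, uses their return to make ATP. Stem cells of adult marrow are known for low mitochondrial respiration and reliance on glycolysis, and their descendants for higher respiration. All genes in this account lie in the nucleus; the subunits encoded by mitochondrial DNA are outside the naming rule.

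Values are deposited intensities on a linear scale, and differences are on the log2(intensity + 16) scale after quantile normalization, with the standard error (SE) of a limma fit. On that scale 1 is a doubling of the signal plus 16, and changes of dim genes are understated. Array medians lay between 41.1 and 49.1. Dnmt1 had 1328 to 2219 units of intensity on the 7 control arrays and 745 to 1305 on the 7 knockout arrays. The groups did not overlap, yet the averaged difference of -0.63 ± 0.14 had an adjusted p of 0.19 (limma). Dnmt1 signal was thus lower on knockout arrays but not absent, and why was not tested. Among markers of other cells, the summed intensity of 14 B cell genes was 8209 to 18092 on LT-HSC arrays and 444 to 4569 on the others. Granule genes of myeloid progenitors (6) summed to 469 to 1363 on LT-HSC arrays and 6596 to 29120 elsewhere, and Cd34, a gene of the sort, read 7.55 to 96.8 in LT-HSCs and 310 to 1021 in MPPs. Stem cell markers (9 measured) summed to 796 to 2207 in LT-HSCs and 1520 to 3462 in MPPs, so LT-HSCs did not have the highest signal of their own markers. T and NK cell markers (12) summed to 573 to 1079 on control and 1429 to 2856 on knockout LT-HSC arrays, and erythroid markers (10) to 2529 to 3978 on control and 5270 to 5384 on knockout MPP arrays. The erythroid sums were 4369 to 10457 on control and 6450 to 8695 on knockout LT-HSC arrays. For myeloid progenitors they were 6071 to 7751 and 6139 to 7351. Mature granulocyte markers (7) summed to 193 to 12365 over all arrays. Mitosis genes (16) summed to 13995 to 16824 on control and 11502 to 12425 on knockout LT-HSC arrays. On MPP arrays they summed to 9822 to 12524 in controls and 12743 to 12905 in knockouts. On myeloid progenitor arrays the sums were 11126 to 11502 and 9625 to 10935. The part of other cells in any difference below was not tested.

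Nearly the whole machinery was detected in every population. The signal of 77 of the 82 genes lay above the 40th percentile of its array on all 14 arrays. The exceptions were Ndufb1 (12 arrays), Cox7c and Cox6a2 (13 each), Cox7a1 (7) and Cox8c (3). The brightest single value, 4851, belonged to Atp5a1, the alpha subunit of the ATP synthase, on an MPP array. The 2 genes left out by the filter were Cox4i2 (1.39 to 7.91 units) and Cox8b (2.94 to 21.8 units), both isoforms of complex IV subunits made mainly in other tissues.

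Knockout was compared with control first, the comparison the study was designed for. None of the 82 genes changed at an adjusted p under 0.05 (limma) in LT-HSCs, MPPs, myeloid progenitors or their average. In the same comparisons 0.0697%, 0.0697%, 0.0929% and 0.232% of all 8608 genes were called, and against that background 0 of 82 says nothing particular about the members. At an unadjusted p under 0.05 the members counted 0 in LT-HSCs, 2 in MPPs, 0 in myeloid progenitors and 0 on average, where the shares of all genes were 6.62%, 2.65%, 1.02% and 6.05%. In bulk samples fewer cells of a type and less RNA per cell cannot be told apart.

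The differences were small for most genes. Their median was -0.01 in LT-HSCs, 0.07 in MPPs, 0.05 in myeloid progenitors and 0.04 on average, beside medians of 0, 0, -0.02 and -0.01 over all genes. The averaged difference ranged from -0.18 to 0.58 and was above 0 for 56 of 82 genes. Members moved together between pools, as described below, so counts of signs here and by complex are not counts of independent genes. The precision of the averaged comparison was enough to bound most genes: the 95% interval lay within a 2-fold change either way for 81 of 82 (98.8%), compared with 93.1% of all genes. Within single populations the interval did so for 61 genes (LT-HSCs), 60 (MPPs) and 69 (myeloid progenitors) (74.4%, 73.2% and 84.1%, against 45.5%, 52.1% and 81.4% of all genes). How small a change could be seen differed by gene, with a median SE of 0.30 in LT-HSCs and in MPPs, 0.24 for myeloid progenitors and 0.16 on average.

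**Figure D1:**
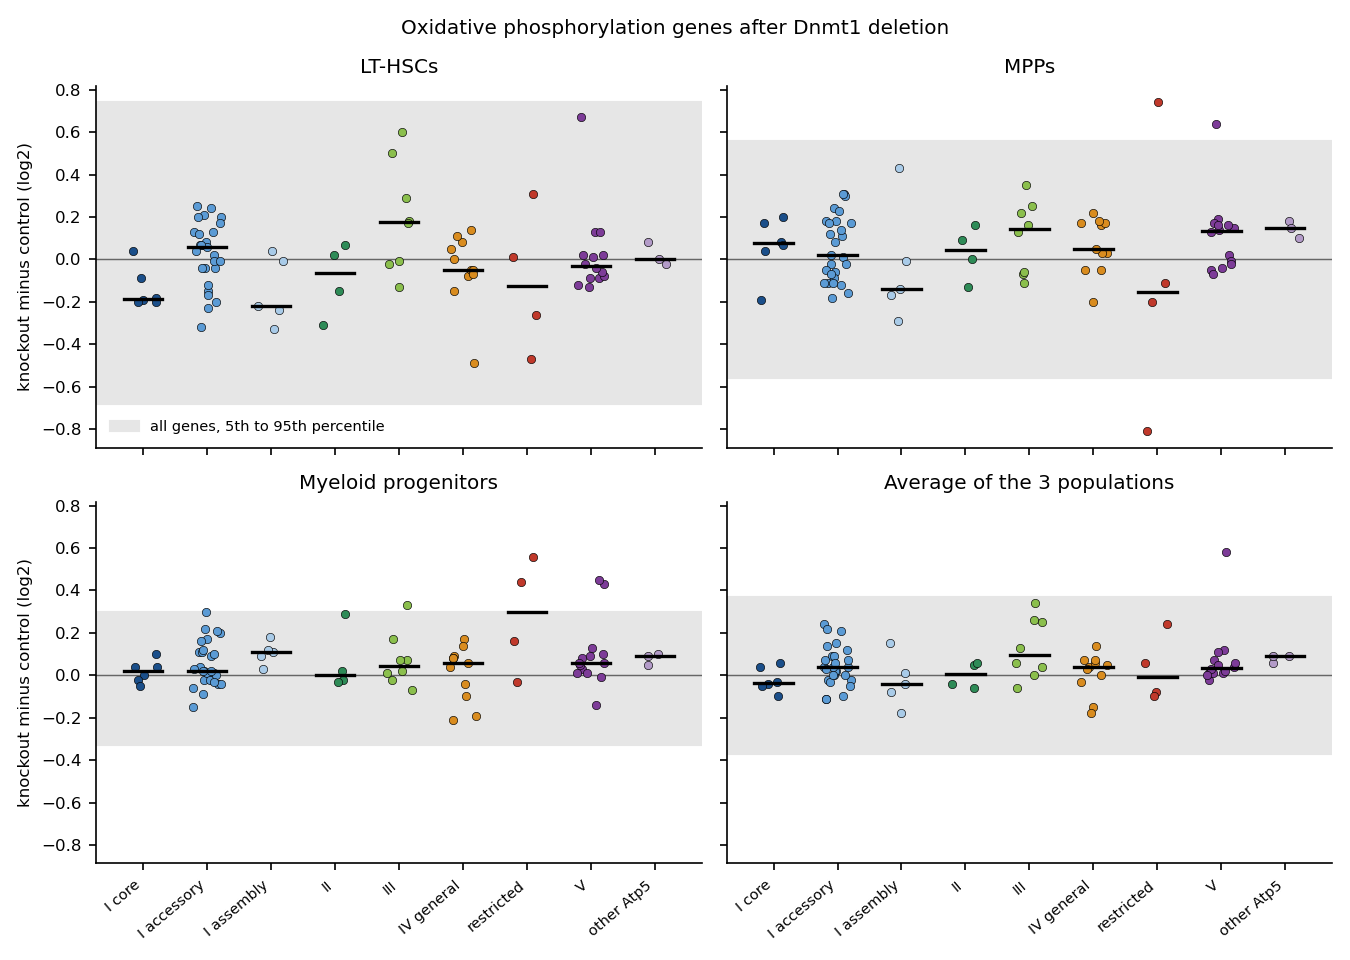
Knockout minus control difference of each of the 82 genes on the log2(intensity + 16) scale, by complex or role, in LT-HSCs, MPPs, myeloid progenitors and their average. Points are genes, bars are group medians and the grey band spans the 5th to 95th percentile of all 8608 genes; the averaged values lie between -0.18 and 0.58, and 0 genes passed the test in any panel.

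Complex I, the entry point for electrons from NADH, had 6 core and 27 accessory subunits measured. The core subunits, among them those that carry the flavin and iron-sulfur clusters, had a median averaged difference of -0.03 (-0.10 to 0.06). Ndufs1, the largest iron-sulfur subunit, differed by -0.04 ± 0.17, and Ndufv1, which binds NADH, by -0.03 ± 0.16. In LT-HSCs Ndufs1 read 286 and 384 units on control arrays and 254 and 305 on knockout arrays, a difference of -0.19 ± 0.31. The knockout value was below the control value in both pairs, and the deposited values of the genotypes overlapped. The accessory subunits had a median of 0.04 (-0.11 to 0.24), with 19 of 27 above 0. The 5 assembly factors had medians of -0.22 (LT-HSCs), -0.14 (MPPs) and 0.11 (myeloid progenitors), with all 5 above 0 in the last.

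Ndufab1 (Entrez Gene 70316) is the mitochondrial acyl carrier protein and a subunit of complex I. Its signal in LT-HSCs was 277 and 534 on control arrays and 323 and 579 on knockout arrays. In MPPs it was 369 and 532 against 474 and 614, and in myeloid progenitors 569, 404 and 574 against 590, 520 and 573. After normalization it was the only member higher on the knockout array of all 7 pairs, by 0.03 to 0.41. Of all genes, 2.14% were higher in 7 of 7 pairs, close to the 1.22% that 1 of 82 genes makes. Its groups overlapped, and its averaged difference was 0.24 ± 0.17 (95% interval -0.13 to 0.62; limma adjusted p = 0.972).

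Among assembly factors Ndufaf4 (Entrez Gene 68493) read 525 and 517 on control and 819 and 602 on knockout MPP arrays. The knockout values were above both control values, and the difference of 0.43 ± 0.26 had an adjusted p of 1 (limma). Ndufaf3, which takes part in an early step of complex I assembly, was at -0.33 ± 0.43 in LT-HSCs and -0.29 ± 0.43 in MPPs, each smaller than its own error.

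Complex II links the TCA cycle to the chain. Its 4 subunits had averaged differences of -0.04 ± 0.10 (Sdha, the flavoprotein), -0.06 ± 0.15 (Sdhb, the iron-sulfur subunit), 0.05 ± 0.23 (Sdhc) and 0.06 ± 0.15 (Sdhd, with Sdhc the membrane anchor). The error of each exceeded its difference. Sdha read 1300 and 1987 on control LT-HSC arrays and 1349 and 1778 on knockout arrays, so its replicates of 1 genotype were farther apart than the genotypes.

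The 8 subunits of complex III had a median averaged difference of 0.10 (-0.06 to 0.34), with 6 above 0. The core proteins Uqcrc1 and Uqcrc2 were at 0.06 ± 0.23 and -0.06 ± 0.16, and Uqcrfs1, the Rieske iron-sulfur protein, at 0.04 ± 0.14. Larger values came from the small subunits. Uqcr10 (Entrez Gene 66152) read 585 and 526 on control LT-HSC arrays and 951 and 673 on knockout arrays. Both knockout values were higher than both controls, with a difference of 0.60 ± 0.30 and an adjusted p of 0.792 (limma). Its other probe sets gave 0.70 ± 0.34 and 0.29 ± 0.52. Uqcr11 in LT-HSCs read 310 and 1130 against 511 and 1256, a difference of 0.50 ± 0.50 that was smaller than the gap between replicates.

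The 11 general subunits of complex IV had a median averaged difference of 0.04 (-0.18 to 0.14). Cox4i1 was at 0.04 ± 0.16, Cox5a at 0.00 ± 0.12 and Cox5b at -0.03 ± 0.15. Cox7a2l (Entrez Gene 20463), which helps to join complexes III and IV into supercomplexes, was the only member below 0 in all 7 pairs, although the first LT-HSC pair was level after rounding (0.00) and the last myeloid progenitor pair nearly so (-0.03). Signals were 2967, 3327, 4011, 2963, 3681, 3400 and 3072 on the control arrays of the LT-HSC, MPP and myeloid progenitor pairs. On the knockout arrays of the same pairs it was 2796, 2938, 3185, 2706, 3326, 2972 and 3091. The last pair is lower only after normalization. The averaged difference was -0.15 ± 0.09 (95% interval -0.35 to 0.04; limma adjusted p = 0.919), and 2.3% of all genes were lower in 7 of 7 pairs. Its other probe sets gave -0.18 ± 0.10 and -0.17 ± 0.10. Cox7c, a small subunit, had the lowest LT-HSC value, -0.49 ± 0.34, from a dim probe set of 51.5 and 53 units on control and 46.2 and 20.8 on knockout arrays.

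Complex IV has subunits with a general and a tissue-restricted isoform, encoded by separate genes. The promoters of such pairs are shown because the study targeted the gene of the enzyme that maintains methylation at CpG dinucleotides. The isoforms of a pair also differ in how many CpG their promoters hold. The sequences are the 250 bases before the first listed start of the gene in RefSeq (GRCm38.p6), 5′ to 3′ on the strand of the gene, with each CpG in capitals. Cox6b1 and Cox8a are general isoforms, Cox6b2 is known from testis, and Cox8b from heart and skeletal muscle.
Cox6b1: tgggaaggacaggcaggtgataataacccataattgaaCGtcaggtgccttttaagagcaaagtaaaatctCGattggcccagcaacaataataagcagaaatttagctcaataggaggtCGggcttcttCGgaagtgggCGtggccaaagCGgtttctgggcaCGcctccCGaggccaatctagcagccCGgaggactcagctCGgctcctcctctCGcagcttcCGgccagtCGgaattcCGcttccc
Cox6b2: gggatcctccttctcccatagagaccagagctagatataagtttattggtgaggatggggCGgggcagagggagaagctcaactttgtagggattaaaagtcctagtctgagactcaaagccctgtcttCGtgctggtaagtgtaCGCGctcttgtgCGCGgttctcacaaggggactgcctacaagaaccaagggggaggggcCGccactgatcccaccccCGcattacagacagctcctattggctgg
Cox8a: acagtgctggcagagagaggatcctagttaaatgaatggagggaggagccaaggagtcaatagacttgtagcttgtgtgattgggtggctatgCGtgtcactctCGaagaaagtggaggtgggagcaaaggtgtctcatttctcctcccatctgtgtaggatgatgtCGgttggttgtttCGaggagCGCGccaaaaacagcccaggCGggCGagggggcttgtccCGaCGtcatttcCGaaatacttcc
Cox8b: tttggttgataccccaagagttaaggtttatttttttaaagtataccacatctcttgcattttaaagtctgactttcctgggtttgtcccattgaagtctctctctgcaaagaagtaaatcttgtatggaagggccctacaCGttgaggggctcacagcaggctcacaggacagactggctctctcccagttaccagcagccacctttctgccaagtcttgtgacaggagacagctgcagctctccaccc
Cox6b1 lies on the minus strand at chr7:30626115-30626364 and Cox6b2 on the minus strand at chr7:4753095-4753344. Cox8a lies on the minus strand at chr19:7217617-7217866 and Cox8b on the minus strand at chr7:140900447-140900696. The stretches hold 14 CpG in Cox6b1 and 8 in Cox6b2, and 11 in Cox8a and 1 in Cox8b. No methylation was measured here, and nothing about methylation is read from these letters.

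The tissue-restricted isoforms were dim or variable, and none of the 4 measured passed the test in the knockout. Cox8b, with 1 CpG in the stretch shown, had 2.94 to 21.8 units of intensity on the 14 arrays and stayed under the filter in both genotypes. Cox7a1, the heart and muscle isoform of another subunit, read 54.4 and 10.8 on control and 48.8 and 30.9 on knockout LT-HSC arrays, and its averaged difference was 0.06 ± 0.25. Cox8c, a testis isoform, read 9.35 to 37.6 units over all arrays.

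Cox6b2 (Entrez Gene 333182) gave a clear signal on every array. In MPPs it read 212 and 208 on control arrays and 354 and 345 on knockout arrays. The genotypes did not overlap there, with a difference of 0.74 ± 0.34 (95% interval 0.00 to 1.48; limma adjusted p = 1). In LT-HSCs it went the other way in both pairs, from 296 to 217 and from 579 to 377 units (-0.47 ± 0.34). In myeloid progenitors control arrays read 182, 209 and 357 and knockout arrays 330, 324 and 287, which overlapped (0.44 ± 0.28).

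Cox6a2 (Entrez Gene 12862), the isoform of heart and skeletal muscle, read 95 and 119 on control and 69 and 39.2 on knockout MPP arrays. Both knockout values were lower, a difference of -0.81 ± 0.33 (95% interval -1.53 to -0.10; limma adjusted p = 1). In myeloid progenitors control arrays read 27.6, 22.2 and 26.4 and knockout arrays 33.9, 47.6 and 57. Here all knockout values were higher, by 0.56 ± 0.27 (limma adjusted p = 1). Neither isoform passed the test in any population. Both had a single probe set, so no other probe set bears on them.

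Complex V, the ATP synthase, had 14 measured subunits in its list. Atp5pb, Atp5md and Atp5mpl, which are also ATP synthase subunits, carry newer names that the list did not hold, and they are counted apart. The 14 had a median averaged difference of 0.03 (-0.02 to 0.58) and 13 above 0. The 3 counted apart had averaged differences of 0.06 to 0.09. Atp5a1 and Atp5b form the catalytic head. Atp5a1 read 3853 to 4851 over the 14 arrays with a difference of 0.01 ± 0.06 (95% interval -0.12 to 0.15). Atp5b, the beta subunit that holds the catalytic sites, was at 0.02 ± 0.21. It varied far more between pools, from 1202 to 4405 units.

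The membrane ring of the ATP synthase is made of copies of 1 small protein, which Atp5g1, Atp5g2 and Atp5g3 all encode. Atp5g1 (Entrez Gene 11951) had the largest averaged difference of all members. It read 267 and 752 on control and 424 and 1117 on knockout LT-HSC arrays, 270 and 565 against 552 and 689 in MPPs, and 407, 406 and 1032 against 808, 565 and 822 in myeloid progenitors. The knockout array was the higher in 6 of 7 pairs, but genotypes overlapped in LT-HSCs, MPPs and myeloid progenitors. The differences were 0.67 ± 0.54, 0.64 ± 0.54 and 0.43 ± 0.44, and the average was 0.58 ± 0.29 (95% interval -0.05 to 1.21; limma adjusted p = 0.862). This was the only member whose averaged interval reached past 2-fold. Atp5g2 was at 0.12 ± 0.22 and Atp5g3 at -0.02 ± 0.08. The Atp5g1 signal comes from 1 probe set, of a type that can bind several transcripts of the gene.

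**Figure D2:**
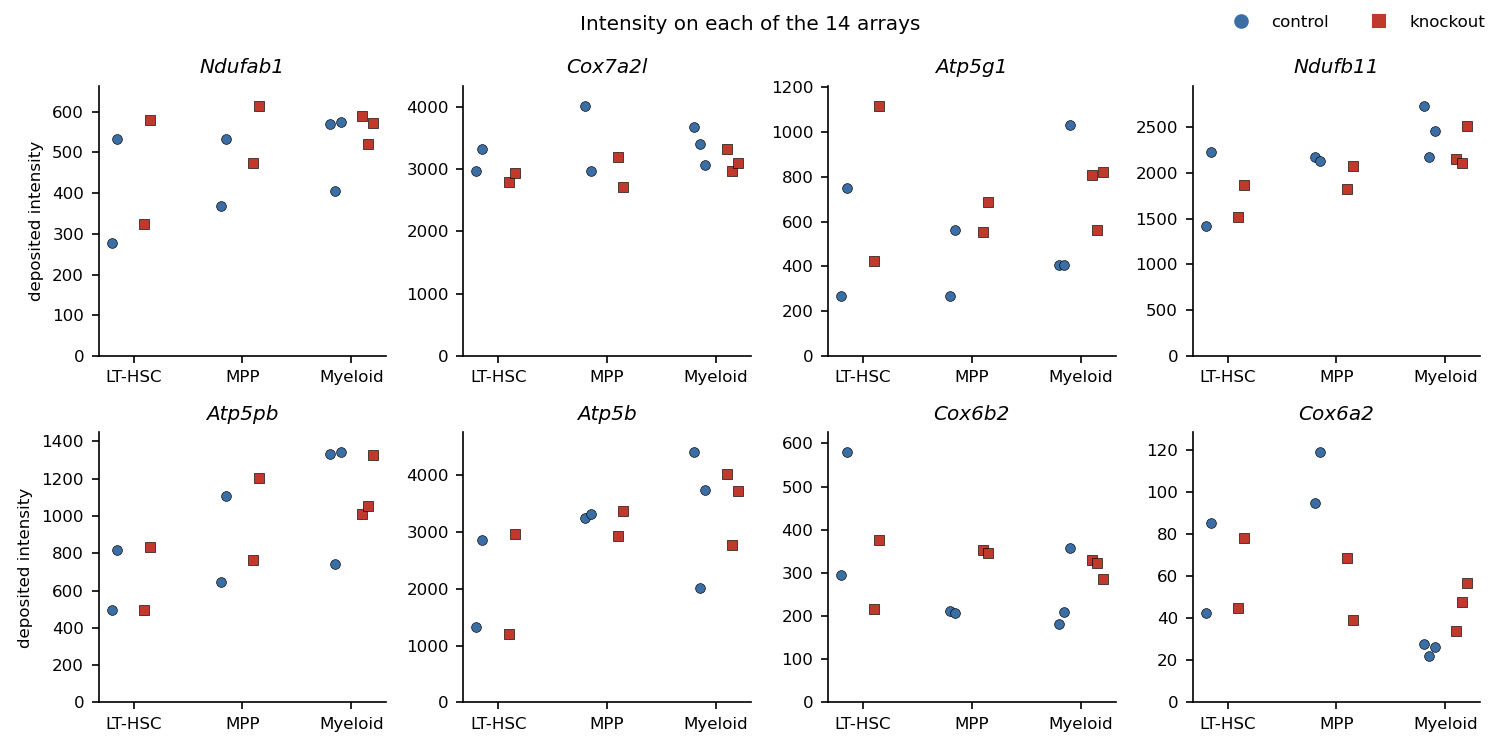
Deposited intensity (linear units) of Ndufab1, Cox7a2l, Atp5g1, Ndufb11, Atp5pb, Atp5b, Cox6b2 and Cox6a2 on each of the 14 arrays, by population and genotype, 1 point per array. Cox6b2 in MPPs separates control (212 and 208) from knockout (354 and 345), while Atp5g1 arrays of both genotypes overlap in LT-HSCs, MPPs and myeloid progenitors.

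Whether the knockout difference itself depended on the population was tested as an interaction. None of the 82 genes was called for any pair of populations (limma adjusted p under 0.05), where 0% of all genes were called. At an unadjusted p under 0.05 the members counted 1 for LT-HSCs against MPPs, 0 for LT-HSCs against myeloid progenitors and 1 for MPPs against myeloid progenitors, beside 3.02%, 2.65% and 0.488% of all genes. The first was Cox6b2, with a difference of -1.21 ± 0.49 between the effects (95% interval -2.26 to -0.17; limma adjusted p = 0.999). The second was Cox6a2, at -1.37 ± 0.43 (95% interval -2.29 to -0.45; limma adjusted p = 1).

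Fitting each littermate pair as a block narrowed the errors of the members without adding a call. The median SE of the averaged difference fell from 0.16 to 0.09. Again none of the 82 genes changed, while the shares of all genes called were 0.232% in LT-HSCs, 0.151% in MPPs, 0.151% in myeloid progenitors and 0.802% on average. The counts of all genes called rose to 20, 13, 13 and 69, from 6, 6, 8 and 20. Unadjusted p-values under 0.05 counted 3, 3, 3 and 5 members (3.66%, 3.66%, 3.66% and 6.1%, against 15.2%, 7.54%, 2.61% and 14% of all genes). The smallest adjusted p of an averaged difference was that of Atp5g1, 0.143 at 0.58 ± 0.16 (limma, blocked). Cox7a2l was at -0.15 ± 0.05 (adjusted p = 0.219), Uqcr11 at 0.34 ± 0.11 (0.222), Uqcr10 at 0.26 ± 0.09 (0.242) and Ndufab1 at 0.24 ± 0.09 (0.28). With blocks the 95% interval of the averaged difference lay within 2-fold for all 82 genes, and in single populations for 78, 78 and 81.

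The members moved together between pools of 1 group. For each array the median deviation of the 82 genes from their own means was taken. In LT-HSC pair 1 it was -0.41 on the control and -0.33 on the knockout array, and in pair 2 it was 0.16 and 0.17. The littermates were thus close and the pairs far apart. In MPPs pair 1 was at -0.17 and -0.03 and pair 2 at 0.11 and 0.12. In myeloid progenitors the 3 pairs were at 0.09 and 0.16, -0.20 and 0.01, and 0.22 and 0.16. The SD of these medians within groups, pooled over the 6 groups, was 0.24. Within pairs the knockout array had the higher median in 6 of 7. The median over members of the difference within a pair was 0.01 and -0.03 for LT-HSCs, 0.15 and -0.02 for MPPs, and 0.06, 0.18 and -0.06 for myeloid progenitors, above 0 in 4 of 7 pairs.

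In LT-HSCs 59 of 82 members (72%) were higher in pair 2 than in pair 1 on both the control and the knockout array, and 12 were lower on both. Over all genes 27.4% were higher and 26.1% lower. The median of pair 2 minus pair 1 was 0.57 for members and 0 for all genes. In MPPs 52 members (63.4%) were higher in pair 2 and 6 lower, beside 31.4% and 27.8% of all genes, with a median of 0.24 against 0.03. These counts are descriptions of 2 pools per genotype.

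The Gapdh 3′ to 5′ ratio compares the signals of probe sets near the 3′ and 5′ ends of 1 transcript and is a customary measure of RNA integrity and amplification. It was 5.44 and 5.15 in LT-HSC pair 1 and 3.07 and 2.46 in pair 2. In MPPs it was 2.86 and 2.66 in pair 1 and 2.44 and 2.53 in pair 2. In myeloid progenitors it was 5.27 and 2.33, 4.30 and 4.35, and 2.25 and 2.36. The lowest member medians of LT-HSCs and of myeloid progenitors came with ratios of 4.30 or more, but the control array of myeloid progenitor pair 1 had a ratio of 5.27 and a member median of 0.09. The same ratio of Actb did not follow that of Gapdh in LT-HSCs. It was 0.808 and 0.754 on the control and knockout arrays of LT-HSC pair 1, and 0.968 and 1.09 in pair 2. Over all arrays the Actb ratio lay between 0.754 and 1.18, with the highest value on the control array of myeloid progenitor pair 1. The part of either ratio in the member medians was not tested.

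**Figure D3:**
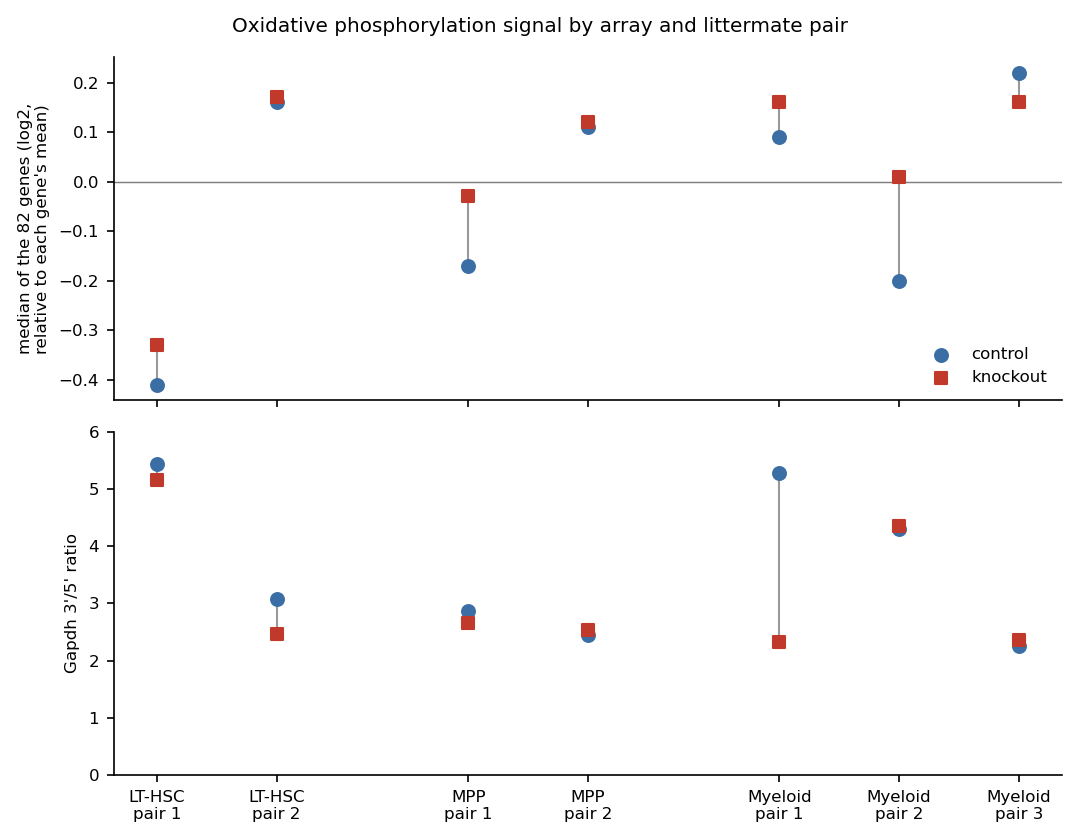
For each of the 7 littermate pairs, the median log2 deviation of the 82 genes on its control and knockout array, and the Gapdh 3′ to 5′ ratio of the same arrays. LT-HSC pair 1 stands at -0.41 and -0.33 and pair 2 at 0.16 and 0.17, while the genotypes of each LT-HSC pair lie within 0.08 of each other.

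The 3 populations were then compared over both genotypes with equal weight. Against myeloid progenitors, 2 members fell in LT-HSCs (limma adjusted p under 0.05) and none rose, where 14.1% of all genes were called, 8.39% as lower and 5.74% as higher. The share of members called, 2 of 82, was below that background. Between LT-HSCs and MPPs 0 members were called (4.96% of all genes), and between MPPs and myeloid progenitors 0 (1.95%). Comparisons that involve the same population share its arrays. The medians of the differences were -0.16 for LT-HSCs minus myeloid progenitors, -0.10 for LT-HSCs minus MPPs and -0.07 for MPPs minus myeloid progenitors, against 0.01, -0.02 and -0.02 over all genes. At an unadjusted p under 0.05, 14 members were lower and 4 higher in LT-HSCs than in myeloid progenitors, beside 16.2% and 13.5% of all genes. Against MPPs 3 were lower and 4 higher (11% and 10.2%). MPPs had 2 lower and 1 higher than myeloid progenitors (7.35% and 7.19%).

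The sign could be read in each genotype on separate arrays. LT-HSCs were below myeloid progenitors for 47 members in both control and knockout arrays (57.3%, against 37.2% of all genes). They were above for 18 members in both (22%, against 37.8%). The medians were -0.15 in control and -0.21 in knockout arrays. LT-HSC pair 1, which had the lowest member medians, enters both. Pair 2 had member medians of 0.16 and 0.17, within the range of myeloid progenitor arrays (-0.20 to 0.22). The counts of 47 and 18 are not given without pair 1.

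**Figure D4:**
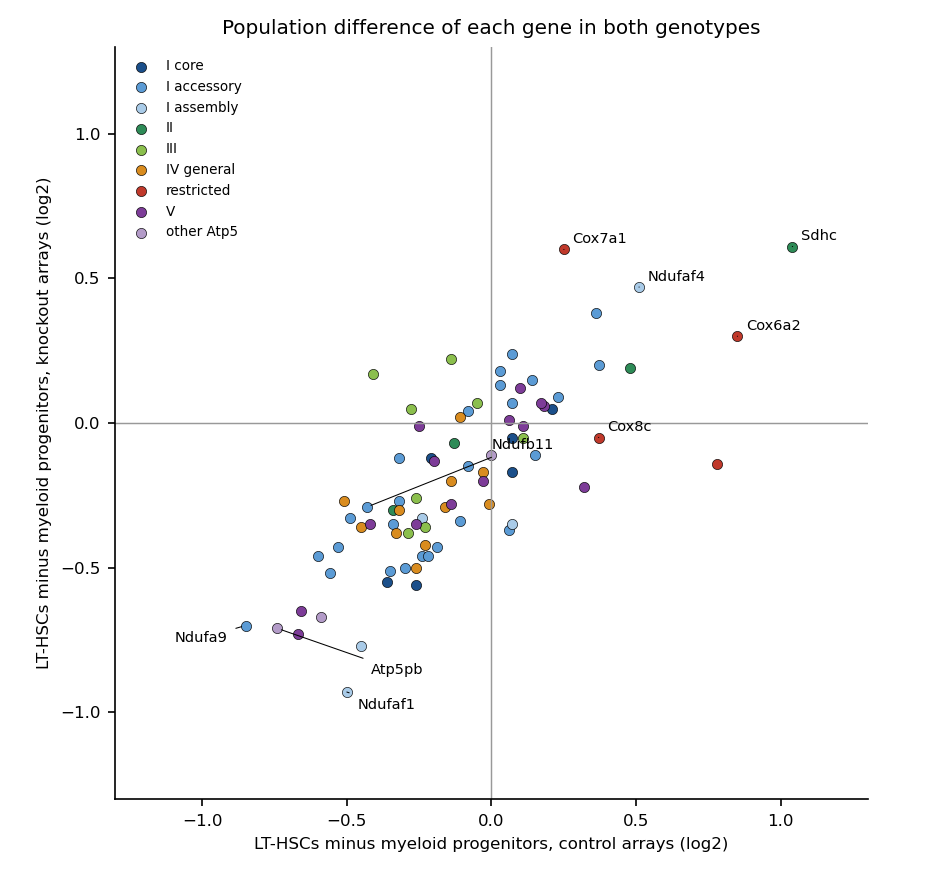
LT-HSC minus myeloid progenitor difference of each of the 82 genes, control arrays on the horizontal and knockout arrays on the vertical axis, both on the log2(intensity + 16) scale. 47 genes are below 0 in both genotypes and 18 above 0 in both, and the 2 called genes, Ndufb11 and Atp5pb, lie in the lower left.

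Ndufb11 (Entrez Gene 104130), an accessory subunit of the membrane arm of complex I, was 1 of the 2 called genes. It read 1423 and 2230 on control and 1518 and 1863 on knockout LT-HSC arrays. On myeloid progenitor arrays it read 2730, 2168 and 2454 in controls and 2152, 2110 and 2512 in knockouts. The populations did not overlap after normalization, although the deposited value of 1 LT-HSC array lay among the lower myeloid progenitor values. The difference was -0.36 ± 0.11 (95% interval -0.59 to -0.12; limma adjusted p = 0.0456), with -0.43 in control and -0.29 in knockout arrays. Other probe sets of the gene gave -0.93 ± 0.33 and -0.36 ± 0.11.

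Atp5pb (Entrez Gene 11950), subunit b of the stalk that holds the ATP synthase head still, was the second. It read 498 and 819 on control and 496 and 831 on knockout LT-HSC arrays. Myeloid progenitors read 1334, 741 and 1340 in controls and 1008, 1051 and 1329 in knockouts. MPPs lay between, with 646 and 1106 and 765 and 1202. LT-HSCs and myeloid progenitors overlapped through 1 control array of the latter. The difference was -0.72 ± 0.22 (95% interval -1.21 to -0.24; limma adjusted p = 0.0467), with -0.74 in control and -0.71 in knockout arrays, and another probe set gave -0.50 ± 0.15.

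Both calls lay close to the threshold and were lost under several alternatives, among them no normalization, no filter and no variance trend. Without both arrays of LT-HSC pair 1, chosen after seeing the data, Ndufb11 was at -0.24 (limma adjusted p = 0.276) and Atp5pb at -0.44 (0.364), and Cox6a2 was the 1 member called, 0.86 higher in LT-HSCs (0.0418). With littermate pairs as a random block 0 members were called, with an adjusted p of 0.162 for Ndufb11 and 0.118 for Atp5pb (limma). Leaving out 1 array at a time gave counts from 0 to 15. The count was 0 without LT-HSC control 1, LT-HSC knockout 1, myeloid progenitor control 1 or 3, or myeloid progenitor knockout 1 or 3. It was 13 without LT-HSC control 2, 15 without LT-HSC knockout 2 and 13 without myeloid progenitor control 2. Both genes kept a negative sign in 24 of 24 alternatives. Ndufb11 was called in 7 of them (adjusted p 0.0146 to 0.276) and Atp5pb in 12 (0.0176 to 0.364).

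By complex, the general subunits of complex IV shared 1 sign in LT-HSCs minus myeloid progenitors when all pools were averaged. All 11 were below 0, with a median of -0.31 (-0.41 to -0.05), and 0 passed the test. The pools differed here too: the median deviation of these subunits was -0.42 on the control and -0.33 on the knockout array of LT-HSC pair 1. On both arrays of pair 2 it was 0.12, within the range of myeloid progenitor arrays (-0.20 to 0.22). The shared sign therefore leans on pair 1. Cox5a (Entrez Gene 12858), a matrix-side subunit, read 1072, 1600, 1066 and 1712 on LT-HSC arrays and 1184, 1673, 1179 and 1652 on MPP arrays. Myeloid progenitor arrays read 1933, 1769, 1947, 1763, 1786 and 1899, higher than every LT-HSC and MPP array. The differences were -0.39 ± 0.14 for LT-HSCs (limma adjusted p = 0.0837) and -0.41 ± 0.14 for MPPs (0.189). In LT-HSCs and MPPs alike the second pair was close to myeloid progenitors and the first was not. Ndufa4, once counted in complex I and now placed in complex IV, read 1765, 2587, 1813 and 2642 on LT-HSC arrays and 2989, 3058, 2727 and 2997 on MPP arrays. The populations did not overlap (-0.33 ± 0.11, limma adjusted p = 0.114).

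Over all members, 0 were higher and 3 lower in LT-HSCs than in myeloid progenitors without any overlap of normalized values (Ndufb11, Cox5a and Sdha), where 5.99% and 8.55% of all genes were. Against MPPs 2 were higher (Ndufaf4 and Ndufa5) and 1 lower (Ndufa4), beside 5.26% and 5.87% of all genes. MPPs lay below myeloid progenitors without overlap for 1 member, Cox5a, and above for none (3.68% and 3.03%).

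Complex I accessory subunits had a median of -0.23 for LT-HSCs minus myeloid progenitors, with 9 of 27 above 0 and 1, Ndufb11, that fell. Core subunits had a median of -0.11, and Ndufs1 was at -0.45 ± 0.20 (limma adjusted p = 0.145). Ndufb10, a membrane arm subunit, was at -0.48 ± 0.15 (0.0551). Some members stood on the other side. Ndufaf4 read 960, 882, 827 and 928 on LT-HSC arrays and 525, 517, 819 and 602 on MPP arrays. No LT-HSC array was as low as the highest MPP array, and the difference was 0.62 ± 0.18 (limma adjusted p = 0.0685). It was 0.49 ± 0.17 against myeloid progenitors (0.0658). Ndufa5, of the matrix arm, read 2173, 2402, 2061 and 2184 in LT-HSCs and 1568, 1761, 1756 and 1680 in MPPs, again without overlap (0.45 ± 0.16, limma adjusted p = 0.116). Another assembly factor, Ndufaf1, was at -0.71 ± 0.25 in LT-HSCs minus myeloid progenitors (0.0723), so the assembly factors did not share 1 direction.

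Within complex II, Sdha was at -0.32 ± 0.12 in LT-HSCs minus myeloid progenitors (limma adjusted p = 0.0858). Sdhc (Entrez Gene 66052) was at 0.83 ± 0.27 (0.055), but its other probe set gave -0.86 ± 0.30. The probe set used is of a type that can bind other transcripts, so no direction is given for Sdhc. For complex III the median was -0.12. The complex V list had a median of -0.12 without Atp5pb (-0.72), Atp5md (-0.06) and Atp5mpl (-0.63), and held Atp5b at -0.70 ± 0.25 (0.0758). Atp5b read 1332 and 1202 in LT-HSC pair 1 and 2858 and 2969 in pair 2, and 2008 to 4405 in myeloid progenitors, so pair 2 lay within the range of myeloid progenitors. Atp5a1 was at 0.04 ± 0.07, and at -0.32 (limma adjusted p = 0.023) when all its probe sets were averaged.

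The 4 measured tissue-restricted isoforms had a median of 0.37 in LT-HSCs minus myeloid progenitors, and none passed the test. The averaged values were all above 0, but the genotypes differed: control arrays gave 0.85 (Cox6a2), 0.78 (Cox6b2), 0.25 (Cox7a1) and 0.37 (Cox8c), and knockout arrays 0.30, -0.14, 0.60 and -0.05 in the same order. Cox6a2 was at 0.57 ± 0.21 (limma adjusted p = 0.093) and, in MPPs minus myeloid progenitors, at 0.82 ± 0.21 (0.0747). Its MPP control arrays read 95 and 119 and its myeloid progenitor control arrays 22.2 to 27.6. The knockout arrays overlapped, at 69 and 39.2 against 33.9 to 57. Cox7a1 was at 0.43 ± 0.29, Cox6b2 at 0.32 ± 0.22 and Cox8c at 0.16 ± 0.19.

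Neighbouring pathways were read from lists of genes outside the naming rule. In the knockout 0 genes of any of these lists were called. The averaged medians were 0.10 for 24 assembly factors with other names, 0.04 for 18 genes of transcription of the chain and of mitochondrial DNA, 0.00 for 16 TCA cycle genes, 0.02 for 18 glycolysis genes and 0.10 for 7 cytochrome c genes and regulators. Among assembly factors Sco2, a copper chaperone of complex IV, was at 0.65 ± 0.25 (limma adjusted p = 0.664) and Uqcc2, an assembly factor of complex III, at 0.42 ± 0.15 (0.629). Cs, citrate synthase, was at 0.24 ± 0.10 (0.792).

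Between LT-HSCs and myeloid progenitors the glycolysis list had more calls than the respiratory chain. Like the members, the list was chosen with earlier results of these data known, so the counts are descriptions. It also holds pyruvate dehydrogenase kinases and glucose transporters. Of its 18 measured genes 8 fell in LT-HSCs and 1 rose (limma adjusted p under 0.05), with a median of -0.41, beside 2 lower calls among the 82 members. Over all genes 8.39% were called lower. Hk2, hexokinase 2, read 502, 814, 473 and 1050 on LT-HSC arrays and 1448 to 1883 on myeloid progenitor arrays, without overlap (-1.21 ± 0.19, adjusted p = 0.000766). Pgam1, phosphoglycerate mutase, read 1045, 1074, 1215 and 1350 against 1960 to 2428 (-0.82 ± 0.11, adjusted p = 0.000194). The pools of LT-HSCs differed for Hk2, with 502 and 473 in pair 1 and 814 and 1050 in pair 2, and less for Pgam1, with 1045 and 1215 in pair 1 and 1074 and 1350 in pair 2.

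Pgk1, phosphoglycerate kinase, was at -1.02 ± 0.19 (limma adjusted p = 0.00292). Ldhb, a lactate dehydrogenase subunit, read 25.6 to 148 on LT-HSC and 204 to 747 on myeloid progenitor arrays (0.00189), from a probe set that can bind other transcripts. Pdk1, a kinase that inhibits pyruvate dehydrogenase, was at -1.14 ± 0.31 (0.0249), and Aldoa, Tpi1 and Pkm were the other genes that fell. Pdk2, of the same kinase family as Pdk1, rose by 0.68 ± 0.20 (0.0389). Against MPPs 5 of 18 genes of the glycolysis list fell in LT-HSCs: Hk2, Pgk1, Pgam1, Ldhb and the kinase Pdk1. The list median was -0.43, and 4.96% of all genes were called in either direction.

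The TCA cycle list also holds subunits of pyruvate dehydrogenase. All its 16 genes lay below 0 in LT-HSCs minus myeloid progenitors, with a median of -0.23 beside 0.01 over all genes. Of these 2 fell, where 8.39% of all genes were called lower. A count of 2 of 16 is near that background. The 2 were Pdha1, a subunit of pyruvate dehydrogenase (-0.83 ± 0.19, limma adjusted p = 0.00866), and Sucla2, of succinyl-CoA ligase (-0.55 ± 0.16, 0.0388). Etfb, which carries electrons from fatty acid oxidation toward the chain, fell too (-0.60 ± 0.17, 0.0282), the 1 call among 7 genes of its list. The assembly factors with other names and the transcription genes had medians of -0.02 and -0.05 and 0 calls.

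Without both arrays of LT-HSC pair 1, 5 glycolysis genes fell and 1 rose against myeloid progenitors, and the median was -0.21. With littermate pairs as a random block 5 fell and 0 rose. Over 24 alternatives the count that fell ranged from 5 to 10 for glycolysis and from 1 to 4 for the TCA cycle. Against MPPs the glycolysis count ranged from 1 to 7 and was 2 without pair 1. On the same LT-HSC arrays 13 of 14 B cell markers rose against myeloid progenitors and 11 of 14 against MPPs, and 6 of 6 granule genes fell in both. Mitosis genes, 3 of 16 of which rose against myeloid progenitors, summed to 11502 to 16824 on LT-HSC and 9625 to 11502 on myeloid progenitor arrays. The part of these in the glycolysis and TCA values was not tested.

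**Figure D5:**
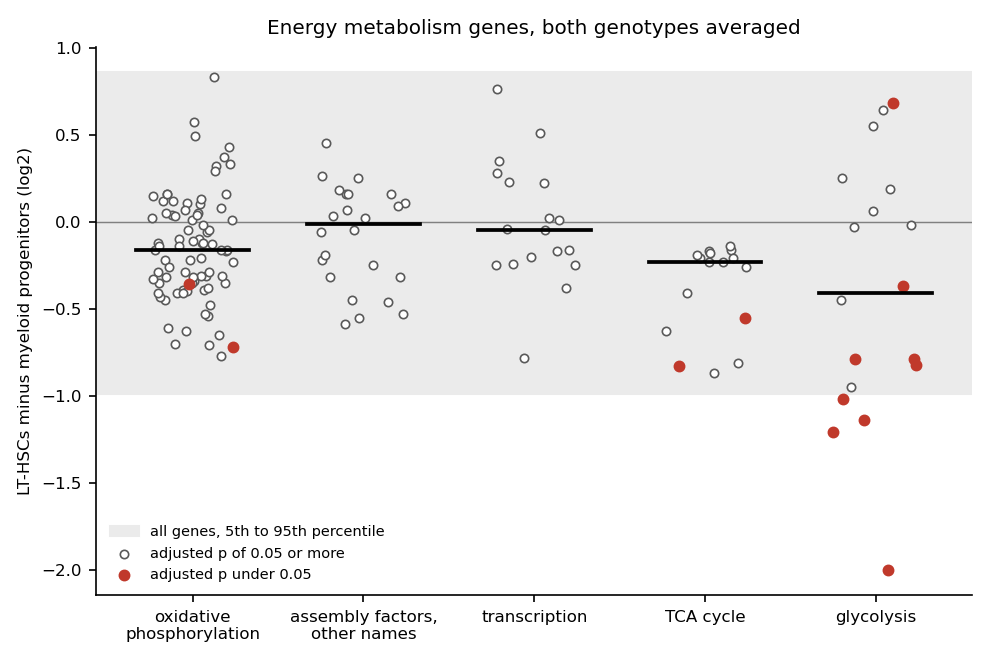
LT-HSC minus myeloid progenitor difference, averaged over genotypes on the log2(intensity + 16) scale, for the 82 oxidative phosphorylation genes and for assembly factors with other names, transcription genes, TCA cycle and glycolysis genes. Points are genes and red points have an adjusted p under 0.05: 2 of 82 members, 0 of 24, 0 of 18, 2 of 16 and 9 of 18. The members and lists were chosen with earlier results of these data known.

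The promoters of the members were rich in CpG, as were those of the genes tested here. RefSeq (GRCm38.p6) gave a start for 70 of the 84 genes, with several starts for 5, of which the first was used. In the 300 bases from 250 before to 50 after the start, members held a median of 19.5 CpG, genes tested here 21 and all 27025 listed genes 7. The 3 tissue-restricted isoforms with an entry held 10 (Cox6b2), 7 (Cox7a1) and 2 (Cox8b), and the 67 other members 8 to 43. The general isoforms shown above held 17 (Cox6b1) and 19 (Cox8a).

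Motifs of factors known to drive respiratory chain genes were searched on both strands of the same windows. GCATGCG, the core of the NRF1 motif, occurred in 11 of 70 members (15.7%), in 7.03% of 7037 genes tested and in 3.64% of all. NRF1 is a regulator of nuclear genes for mitochondria. The 11 were Atp5g2, Atp5k, Atp5l, Cox6a1, Ndufa6, Ndufa8, Ndufaf4, Ndufaf5, Sdhb, Uqcr11 and Uqcrc1. CCGGAAG, the core of sites for GABP and other ETS factors, occurred in 17 (24.3%), 19.4% and 9.12%. ATGGCGG, the core of the YY1 motif, occurred in 9 (12.9%), 8.67% and 4.19%. Of these 3 strings none contains another. A match is a string of letters and not a bound site.

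Probe sets of 1 gene did not always give the same sign. For 43 members with 2 or more probe sets past the filter, the averaged knockout differences of a gene spanned a median of 0.06 and at most 0.40 (Ndufa7), with mixed signs in 12. In single populations the median span was 0.17 in LT-HSCs (at most 0.99, Cox5b; mixed signs in 21), 0.13 in MPPs (0.71, Atp5c1; 10) and 0.12 for myeloid progenitors (0.48, Uqcr10; 13). Between populations it was 0.30 for LT-HSCs minus MPPs (1.40, Sdhc; 17), 0.27 for LT-HSCs minus myeloid progenitors (1.69, Sdhc; 18) and 0.15 for MPPs minus myeloid progenitors (0.72, Ndufa7; 16).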

How the data were processed

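The 14 RNA samples were amplified (WT-Ovation Pico), biotin labelled and hybridised to Affymetrix arrays, per the labels. The authors deposited linear intensities, 1 per probe set and array; their summary method was not given in the sources used here. Of 22690 probe sets in the table the annotation gave several symbols to 691, none to 1555 and 1 to the rest but 64 controls. Entrez identifiers of 20351 matched the mouse gene table, which changed 0 symbols. Arrays have no depth; their number sets the precision.

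Values were taken as log2(intensity + 16) and quantile normalized. Probe sets above the 40th percentile of their array on at least 2 arrays were kept, and the probe set with the highest mean stood for a gene. One limma fit (limma 3.58.1, R 4.3.3) of 6 group means gave all 10 comparisons, with eBayes trend (8 residual and, in the median, 5.4 prior degrees of freedom), two-sided tests and Benjamini-Hochberg adjustment over 8608 genes at 0.05. The fit was tested on simulated data, but no result of that test is given here. Python 3.11.15, numpy 2.4.6, pandas 2.3.3 and matplotlib 3.10.9 served for promoters and figures.

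Same-numbered control and knockout samples of a population are littermates, per the labels. Their deviations from the group means correlated over all genes (LT-HSCs r = 0.46, MPPs 0.60, myeloid progenitors 0.20, 0.54 and 0.61) and over members (0.74, 0.61, and 0.14, 0.84 and 0.56); LT-HSCs and MPPs give a single value each. The pairs were fitted as fixed blocks for the knockout (4 residual degrees of freedom) and as a random block (consensus correlation 0.5) between populations.

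The members and lists were chosen with earlier results of these data known. Named were members past the threshold; the 3 highest and 3 lowest with the same sign in every pair (knockout) or without overlap (populations); core subunits; tissue-restricted isoforms; and, of other lists, called genes or the 2 highest and 2 lowest in the averaged knockout comparison. Others named were chosen after their values were seen. Alternatives changed the normalization, the pseudocount, the filter, the probe set rule, the variance trend and the arrays used.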

Additional observations from a re-analysis of the deposited data

How the results depend on the processing

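The count of members called was 0 for the 4 knockout comparisons and the 3 interactions under every alternative run, leaving out each array in turn included, and the replicate block added no call (0). For LT-HSCs against myeloid progenitors the count of 2 was 0 without normalization, without a filter, without a variance trend and with the pairs as a random block, 5 with median-centred arrays, 4 with the mean of all probe sets of a gene, 1 without LT-HSC pair 1 (added after seeing the data), and 0 to 15 when 1 array was left out. Leaving out 1 array gave 0 to 5 calls for LT-HSCs against MPPs and 0 to 1 for MPPs against myeloid progenitors. The causes were not tested. Of the values of single genes 1 was reversed: Atp5a1 in LT-HSCs minus myeloid progenitors, -0.32 with the mean of its probe sets against 0.04. The other gene values gave 3659 unchanged in direction and call, 149 moved, 22 newly called and 29 no longer called. The median knockout difference of the members in LT-HSCs ranged from -0.31 to 0.29 with 1 LT-HSC array left out.

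The precision is limited by 2 or 3 pools per group, by dim probe sets of some members, and by probe sets of the x and s types, which are not specific to 1 transcript. Replicates of a population differed in the overall signal of the members, and population values carry that spread.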
